A study of Mus musculus with 10 samples.

Results

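The genes of motile cilia and axonemal dyneins were followed in lung RNA-seq data from a mouse model of asthma. A list of 40 genes was taken: Foxj1, 11 dynein heavy chain genes of the axoneme, the smaller dynein subunits, and genes of dynein docking, dynein assembly, radial spokes, the central pair and other parts of the cilium. The values of all rows carrying a gene's symbol were summed in each library. Of the 40 genes, 38 had a row in the table, which holds 24394 symbols in all, and Dnah3 and Dnah12 were not analysed here. Cfap43 was listed at 0 in every library, and the other 37 passed the filter on low values and were among the 16075 genes tested. The genes were named by their function, with no measured value in the rule. RNA came from lung tissue of female BALB/c mice of 8 weeks. Saline mice (n = 3) received saline. OVA mice (n = 3) were sensitized to ovalbumin, an egg protein, by intraperitoneal injection with alum on days 0 and 7 and challenged intranasally for 4 days from day 12, which provokes allergic airway inflammation. Herb mice (n = 4) had the same ovalbumin protocol and an oral ethanol extract of Descurainia sophia seeds at 200 mg/kg on days 9 to 15. No group received the extract without ovalbumin.

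Motile cilia are the beating hairs on the multiciliated cells that line the airways, where they move mucus out of the lung. Each holds an axoneme of doublet microtubules around a central pair, and motion comes from dynein motors arranged as outer arms, which set the power of the beat, and inner arms, which shape it. Radial spokes and nexin links carry and limit the sliding between doublets. Dynein arms are put together in the cytoplasm by assembly factors before they enter the cilium. A programme of regulators (Gmnc, Mcidas, E2f4, Myb, Trp73, RFX factors and Foxj1) turns an airway progenitor into a multiciliated cell, and mutations in many of these genes cause primary ciliary dyskinesia. In whole lung tissue, a lower level from fewer ciliated cells and a lower level from less RNA per ciliated cell cannot be told apart.

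Values were FPKM, fragment numbers scaled to transcript length and library size, so levels of different genes are compared per length. The depth, estimated from the lowest values in each library, was about 14900000 to 29400000 fragments per library. The share of fragments on protein-coding transcripts was 33.0% to 33.3% in Saline, 11.9% to 14.9% in OVA and 19.3% to 25.8% in Herb, while the ribosomal RNA precursor Rn45s stood at 1201 to 1386, 10014 to 13531 and 3230 to 7019 FPKM. FPKM divides a library among all its RNA. The median gene had a log2 fold change of -0.79 in OVA vs. Saline, 0.59 in Herb vs. OVA and -0.23 in Herb vs. Saline. When each library was divided by its own 75th percentile, these medians were 0.13, 0.005 and 0.13. Calls below are given as deposited and after this scaling, and neither is taken as the true scale. Scgb1a1 of club cells was listed at 2471 to 22628 FPKM and Sftpc of alveolar type 2 cells at 210 to 3228 FPKM, and these defining genes of lung were present in every library. A call is an adjusted p under 0.05 by limma with Benjamini-Hochberg adjustment over all genes tested, and log2 fold changes are on the log2(FPKM + 0.1) scale. The study gives the numbers of each group as mice, and p-values rest on the spread between these libraries.

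OVA vs. Saline asks what the allergic model did to these genes. As deposited, Foxj1, the master transcription factor of motile ciliogenesis, rose with a log2 fold change of 1.43 ± 0.43 (SE), adjusted p = 0.0208, and the inner arm heavy chains Dnah2 (0.97 ± 0.28 (SE), adjusted p = 0.0184) and Dnah10 (1.00 ± 0.37 (SE), adjusted p = 0.0476) rose with it. Tppp3, a tubulin polymerization-promoting protein abundant in ciliated cells, fell (-1.21 ± 0.24 (SE), adjusted p = 0.00303), as did the dynein light chain gene Dnal1 (-0.70 ± 0.14 (SE), adjusted p = 0.00294). The other 32 genes tested did not pass. In all, 3 of 37 genes were called higher and 2 of 37 lower, whereas 3.98% of all genes tested were called higher and 44.5% lower. The median log2 fold change of the 37 genes was 0.20, with 26 positive values, against the median of -0.79 over all genes. The positive values include Ccdc40 (0.66) and Drc1 (0.20), and the median is the value of Drc1 itself. These genes had Saline means of 0.093 and 0.067 FPKM and passed the filter on low values through OVA (Ccdc40) or Herb (Drc1) libraries.

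After scaling to the 75th percentile, 15 of the 37 genes were called higher in OVA and none lower, when 20.5% of all genes tested were called higher and 14.3% lower. These were Foxj1, the heavy chains Dnah1, Dnah2, Dnah6, Dnah7a, Dnah9, Dnah10 and Dnah11, the intermediate chain Dnaic1, the docking gene Ccdc151, the assembly factors Lrrc6 and Zmynd10, the central pair genes Hydin and Spag17, and Mns1. Their log2 fold changes ran from 0.98 in Mns1 to 2.48 in Foxj1, and the median over the 37 genes was 1.17. Dnal1 and Tppp3 were then at 0.32 and -0.15 and were not called. Scaling to the summed FPKM of protein-coding rows called 28 of the 37 genes higher when 36.6% of all genes tested were called higher and 6.61% lower. Quantile normalization called 14 higher, when 15.4% of all genes were higher and 13.6% lower. Neither called any of the 37 lower. Tppp3 was among those called higher under quantile normalization (0.67, adjusted p = 0.0396 by limma), so its direction turned with the scaling.

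The counts depended on single libraries. Without OVA replicate 3, as deposited, no gene was called higher and 6 lower, when 432 of the 16075 genes tested were called higher and 6839 lower. Without Saline replicate 1, again no gene was called higher (497 of all genes). The count of genes called higher was 5 without Saline replicate 2 (478 of all genes), 1 without Saline replicate 3 (526) and 1 without OVA replicate 1 (611). After scaling to the 75th percentile the count of genes called higher lay between 11 and 19 when any single library was left out. On that scale 2 genes were called lower without OVA replicate 3. With every library, 20.5% of all genes tested were called higher and 14.3% lower there. With both Saline replicate 1 and OVA replicate 3 left out, 2 were called higher, with 2017 of all genes higher. That combination was chosen after the values were seen. Dnah10 was the least firm of the calls as deposited, with an adjusted p of 0.0476.

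**Figure D1:**
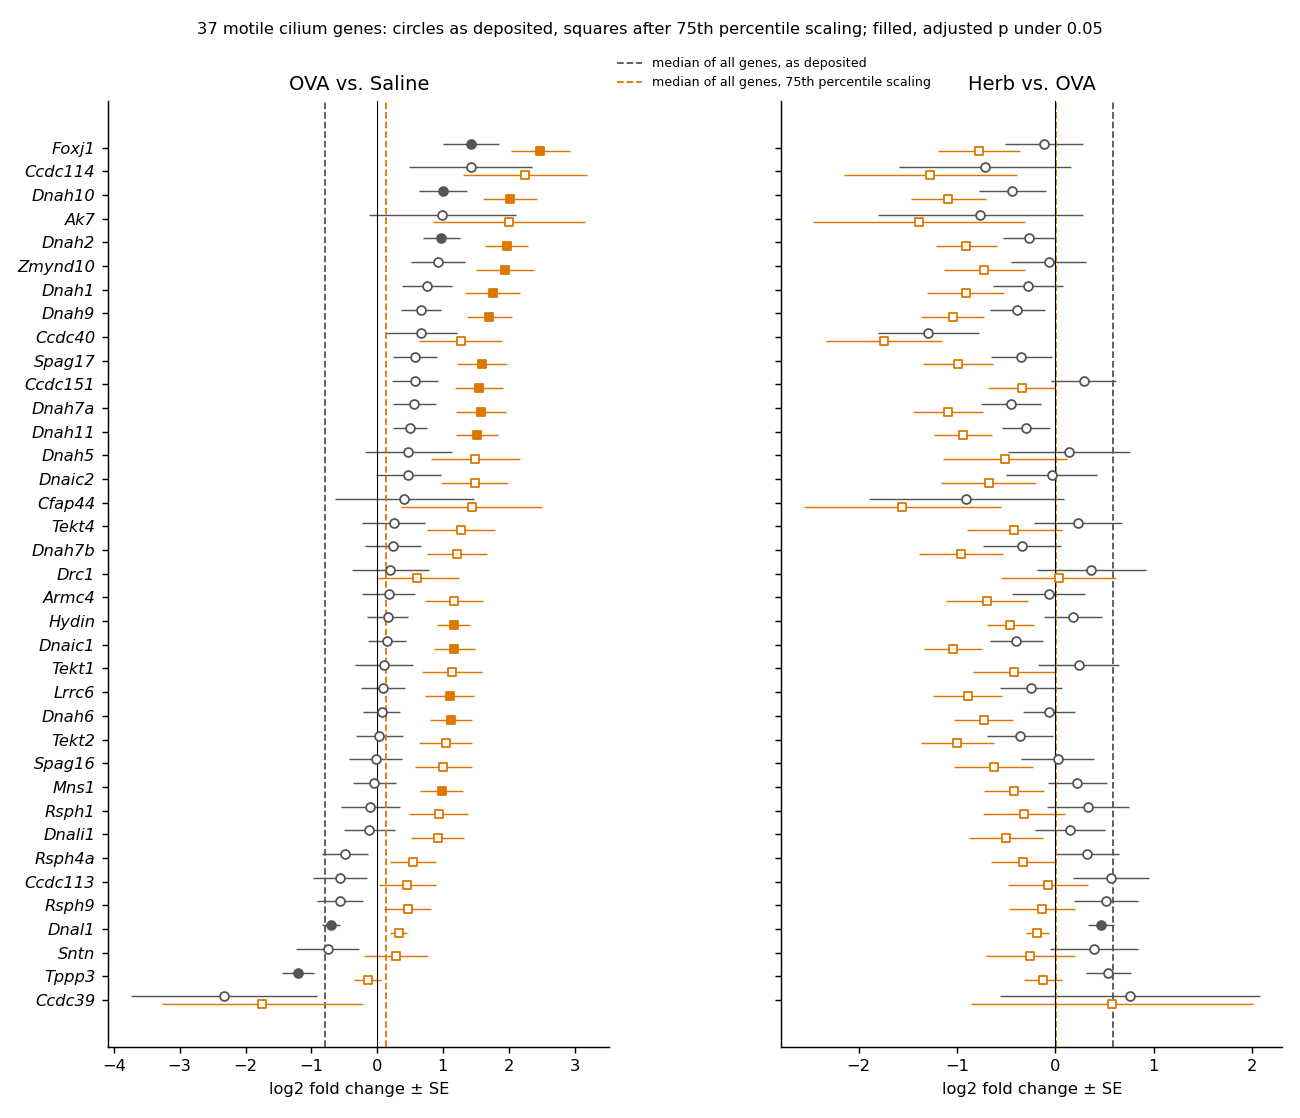
Log2 fold changes (horizontal axis) of the 37 motile cilium genes tested, with standard errors, in OVA vs. Saline (left) and Herb vs. OVA (right). Circles are values as deposited and squares after scaling to the 75th percentile; filled symbols passed an adjusted p of 0.05, and the dashed lines are the medians of all genes. Most genes lie to the right of the all-gene line in OVA vs. Saline on either scale and to its left in Herb vs. OVA.

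Foxj1 (chromosome 11, 116330704 to 116335399, minus strand, GRCm38, the build named mm10) is the forkhead factor without which motile cilia are not made. Its level was 2.72, 6.66 and 4.31 FPKM in Saline, 7.94, 9.46 and 21.4 FPKM in OVA and 9.3, 8.27, 13.9 and 12.8 FPKM in Herb. Every OVA and every Herb library lay above every Saline library, and OVA replicate 3 stood highest. The mean was 4.56 ± 1.98 FPKM (SD, n = 3) in the Saline group. It was 12.9 ± 7.36 FPKM (SD, n = 3) with ovalbumin alone, and 11.1 ± 2.7 FPKM (SD, n = 4) with the extract. The libraries held an estimated 107 to 1150 fragments of the gene. In all 23 alternative settings the log2 fold change of Foxj1 in OVA vs. Saline stayed positive, from 0.68 to 2.96, and it was called in 18 of them, with adjusted p from 0.00106 to 0.136. In Herb vs. Saline the value was 1.32 ± 0.40 (SE), adjusted p = 0.0583, and 1.70 ± 0.42 (SE), adjusted p = 0.0354 after scaling. Between Herb and OVA it was -0.12 ± 0.40 (SE), adjusted p = 0.849 as deposited and -0.78 ± 0.42 (SE), adjusted p = 0.305 after scaling.

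**Figure D2:**
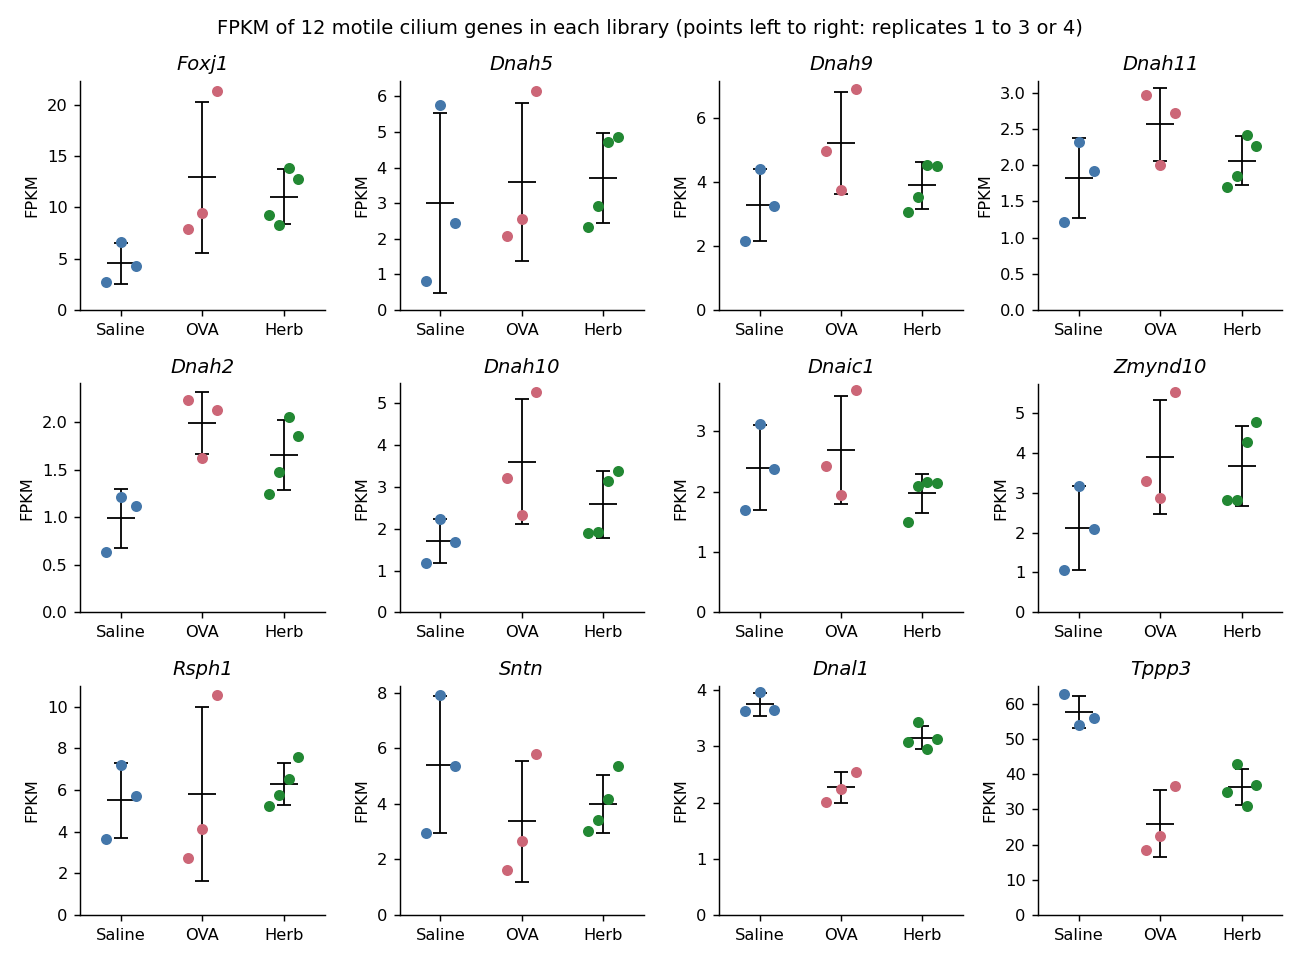
FPKM (vertical axes, from 0) of 12 motile cilium genes in each library as deposited, with points for the libraries and bars for the mean ± SD of Saline (n = 3), OVA (n = 3) and Herb (n = 4). Foxj1 and Dnah2 of OVA and Herb lie above all Saline libraries, and Dnal1 and Tppp3 lie below them. Of the other panels, Saline replicate 1 is the lowest point in Dnah5, Dnah9, Dnah11, Dnah10 and Zmynd10. OVA replicate 3 is the highest in Dnah5, Dnah9, Dnah10, Dnaic1, Zmynd10 and Rsph1.

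The outer arm heavy chains Dnah5, Dnah9 and Dnah11 are the motors that drive the beat. Dnah5, the gamma heavy chain, stood at 0.803, 5.77 and 2.44 FPKM in Saline, 2.07, 2.56 and 6.15 FPKM in OVA and 2.34, 2.92, 4.72 and 4.85 FPKM in Herb. Its spread within Saline covered nearly the whole range of all libraries, and the groups overlapped (0.48 ± 0.66 (SE), adjusted p = 0.589 in OVA vs. Saline). Dnah9, a beta heavy chain of the distal axoneme, stood at 2.17, 4.42 and 3.26 FPKM in Saline, 4.96, 3.77 and 6.93 FPKM in OVA and 3.06, 3.53, 4.54 and 4.49 FPKM in Herb. Its value in OVA vs. Saline was 0.67 ± 0.30 (SE), adjusted p = 0.101 as deposited and 1.70 ± 0.34 (SE), adjusted p = 0.00638 after scaling, when all OVA libraries were above all Saline libraries. Dnah11, the beta heavy chain of the proximal axoneme, was at 1.22, 2.32 and 1.92 FPKM in Saline, 2.97, 2 and 2.72 FPKM in OVA and 1.7, 1.86, 2.42 and 2.26 FPKM in Herb. It changed by 0.50 ± 0.26 (SE), adjusted p = 0.151 as deposited and by 1.52 ± 0.32 (SE), adjusted p = 0.00716 after scaling in OVA vs. Saline.

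The inner arm heavy chains, each the motor of a distinct inner arm species, held both of the heavy chain genes called as deposited. Dnah2 (chromosome 11, 69420809 to 69549110, minus strand) measured 0.637, 1.22 and 1.11 FPKM in Saline, 2.23, 1.62 and 2.13 FPKM in OVA and 1.24, 1.47, 2.06 and 1.85 FPKM in Herb. Every OVA and every Herb library was above every Saline library, at an estimated 131 to 898 fragments. Dnah10 (chromosome 5, 124725085 to 124834308, plus strand) was at 1.19, 2.24 and 1.69 FPKM in Saline, 3.21, 2.33 and 5.25 FPKM in OVA and 1.89, 1.91, 3.14 and 3.38 FPKM in Herb. All OVA libraries were above all Saline libraries, but Dnah10 of the Herb mice overlapped Saline. Dnah6 was the most abundant heavy chain per length, with a mean of 9.18 FPKM over the 10 libraries, and Dnah1 had a mean of 1.58 FPKM. Their log2 fold changes in OVA vs. Saline were 0.07 and 0.76 as deposited and 1.12 and 1.76 after scaling. Dnah7a and Dnah7b are near-identical copies on chromosome 1, and reads that fit both could be split between them in counting, so their values are uncertain. Dnah7a had levels of 1.03, 2.02 and 1.44 FPKM in Saline, 2.61, 1.64 and 2.44 FPKM in OVA and 1.06, 1.41, 2.1 and 1.92 FPKM in Herb. Dnah7b stood at 0.497, 1.87 and 0.83 FPKM in Saline, 0.998, 0.997 and 1.4 FPKM in OVA and 0.654, 0.661, 1.19 and 1.06 FPKM in Herb. The groups of either copy overlapped as deposited, with 0.57 ± 0.32 (SE), adjusted p = 0.181 for Dnah7a and 0.24 ± 0.43 (SE), adjusted p = 0.676 for Dnah7b in OVA vs. Saline.

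Of the smaller subunits, the intermediate chains Dnaic1 and Dnaic2 anchor the outer arm. Dnaic1 measured 1.7, 3.12 and 2.38 FPKM in Saline, 2.43, 1.95 and 3.69 FPKM in OVA and 1.5, 2.09, 2.16 and 2.14 FPKM in Herb. It differed little between the groups as deposited (0.15 ± 0.29 (SE), adjusted p = 0.703 in OVA vs. Saline) and was called higher after scaling (1.17 ± 0.32 (SE), adjusted p = 0.0203). Dnaic2 had levels of 0.84, 2.44 and 1.69 FPKM in Saline, 1.44, 1.61 and 4.28 FPKM in OVA and 1.51, 1.67, 2.91 and 2.64 FPKM in Herb, and its groups overlapped (0.47 ± 0.49 (SE), adjusted p = 0.462). Dnali1, a light intermediate chain of inner arms, was at 2.78, 5.54 and 4.21 FPKM in Saline, 2.67, 2.91 and 6.46 FPKM in OVA and 3.45, 3.18, 4.81 and 5.36 FPKM in Herb, with -0.12 ± 0.38 (SE), adjusted p = 0.825. The OVA and Saline libraries of Dnali1 overlapped.

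Dnal1 (chromosome 12, 84114366 to 84147498, plus strand), the light chain that binds the gamma heavy chain, departed from these genes. Its level was 3.62, 3.98 and 3.64 FPKM in Saline, 2.01, 2.24 and 2.55 FPKM in OVA and 3.09, 3.44, 2.96 and 3.14 FPKM in Herb. All OVA libraries were below all Saline and all Herb libraries, and the spread within groups was the smallest of the 37 genes (SD 0.112 on the log2 scale). Its change in OVA vs. Saline turned from -0.70 as deposited to 0.32 after scaling (median gene -0.79 and 0.13). It was the single gene of the list called in Herb vs. OVA as deposited (0.46 ± 0.13 (SE), adjusted p = 0.027), and after scaling that value was -0.18 ± 0.12 (SE), adjusted p = 0.38.

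The docking genes Ccdc114, Ccdc151 and Armc4 fix outer arms to the doublets. Ccdc151 stood at 0.724, 1.26 and 1.02 FPKM in Saline, 1.03, 1.3 and 2.5 FPKM in OVA and 1.55, 1.48, 2.04 and 2.53 FPKM in Herb. Its Herb libraries were all above the Saline libraries, with 0.86 ± 0.33 (SE), adjusted p = 0.11 as deposited and 1.21 ± 0.34 (SE), adjusted p = 0.0516 after scaling in Herb vs. Saline. Ccdc114 was low and erratic, at 0.0743, 0.154 and 0.406 FPKM in Saline, 0.694, 0.586 and 0.691 FPKM in OVA and 1.43, 0, 1.01 and 0.163 FPKM in Herb. Its log2 fold change of 1.42 ± 0.94 (SE), adjusted p = 0.244 in OVA vs. Saline carried the fourth widest error of the list, and its OVA libraries were all above its Saline libraries. Armc4 had a mean of 1.37 FPKM and a change of 0.17 ± 0.40 (SE), adjusted p = 0.748. The assembly factor Zmynd10 measured 1.06, 3.18 and 2.1 FPKM in Saline, 3.3, 2.87 and 5.51 FPKM in OVA and 2.81, 2.8, 4.26 and 4.77 FPKM in Herb. It stood at 0.92 ± 0.41 (SE), adjusted p = 0.0923 in OVA vs. Saline as deposited and at 1.95 ± 0.44 (SE), adjusted p = 0.00998 after scaling. Lrrc6, its binding partner in dynein assembly, gave 0.082 ± 0.33 (SE), adjusted p = 0.863 and 1.10 ± 0.37 (SE), adjusted p = 0.0485.

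Ccdc39 and Ccdc40 form the ruler that sets the repeat of spokes and inner arms, and Drc1 is a base of the nexin link. Ccdc39 was given as 1.8, 0.895 and 2.19 FPKM in Saline, 0, 0 and 3.32 FPKM in OVA and 1.27, 0, 0.629 and 0.803 FPKM in Herb. The 0 values stood in OVA replicates 1 and 2 and Herb replicate 2, although libraries beside them held up to 245 estimated fragments, and a listed 0 can be a failed estimate. Gapdh, a gene of every cell, was listed at 0 in 9 of the 10 libraries. The Ccdc39 change of -2.33 ± 1.41 (SE), adjusted p = 0.207 in OVA vs. Saline had the widest error of the list. Ccdc40 had levels of 0.0321, 0.114 and 0.132 FPKM in Saline, 0.636, 0.0514 and 0.133 FPKM in OVA and 0.0295, 0.0591, 0.0024 and 0.00216 FPKM in Herb. Drc1 had a mean of 0.112 FPKM and at most 13 estimated fragments in a library, so differences in it were not detectable at this depth.

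Radial spokes reach from the doublets to the central pair. Rsph1, of the spoke head, stood at 3.63, 7.2 and 5.7 FPKM in Saline, 2.71, 4.11 and 10.5 FPKM in OVA and 5.24, 5.76, 6.55 and 7.57 FPKM in Herb. OVA replicate 1 was below all Saline libraries and replicate 3 above all of them. Rsph4a, another head protein, was at 2.81, 5.19 and 4.03 FPKM in Saline, 1.95, 2.18 and 4.86 FPKM in OVA and 2.79, 3.68, 3.62 and 3.89 FPKM in Herb. Rsph9 had a mean of 4.16 FPKM. The 3 genes had log2 fold changes of -0.11, -0.48 and -0.57 in OVA vs. Saline as deposited and of 0.94, 0.55 and 0.46 after scaling, and none was called.

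Among central pair genes, Hydin, a giant protein of the central pair projection, measured 1.1, 2.01 and 1.48 FPKM in Saline, 1.14, 2.02 and 2.01 FPKM in OVA and 2.23, 2.47, 1.41 and 1.69 FPKM in Herb. OVA replicates 2 and 3 were level, unlike most of the list, and Hydin was called higher after scaling (1.16 ± 0.25 (SE), adjusted p = 0.00895) but not as deposited (0.16 ± 0.31 (SE), adjusted p = 0.707). Spag17, of the same apparatus, was at 1.09, 2.25 and 1.89 FPKM in Saline, 2.59, 1.98 and 3.21 FPKM in OVA and 1.42, 1.65, 2.7 and 2.45 FPKM in Herb, with 0.58 ± 0.33 (SE), adjusted p = 0.183 and, after scaling, 1.60 ± 0.38 (SE), adjusted p = 0.0126. Spag16 had a mean of 3.44 FPKM over 3 summed rows and -0.025 ± 0.40 (SE), adjusted p = 0.968. The tektins build the wall of the doublet. Tekt1 had levels of 1.82, 5.73 and 4.09 FPKM in Saline, 2.72, 3.12 and 6.3 FPKM in OVA and 3.45, 4.11, 5.09 and 5.52 FPKM in Herb. Tekt2 stood at 1.29, 2.3 and 1.84 FPKM in Saline, 1.77, 1.09 and 3 FPKM in OVA and 1.21, 1.16, 1.62 and 1.6 FPKM in Herb. The groups of both tektins overlapped as deposited, at 0.10 and 0.03 in OVA vs. Saline, while Tekt4 stood at 0.25 and the doublet lumen gene Mns1 at -0.04.

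Tppp3 (chromosome 8, 105467493 to 105471526, minus strand) was the most abundant gene of the list. Its level was 62.8, 54.1 and 55.9 FPKM in Saline, 18.6, 22.5 and 36.6 FPKM in OVA and 35, 43, 30.8 and 36.8 FPKM in Herb. The Saline libraries were above all others, and the OVA and Herb libraries overlapped. After scaling, its Saline and OVA libraries overlapped (-0.15 ± 0.20 (SE), adjusted p = 0.608). Sntn, sentan of the ciliary tip, was at 2.96, 7.91 and 5.36 FPKM in Saline, 1.63, 2.67 and 5.81 FPKM in OVA and 3.02, 3.41, 4.18 and 5.37 FPKM in Herb. OVA replicates 1 and 2 lay below all Saline libraries and replicate 3 above Saline replicates 1 and 3, and the change was -0.75 ± 0.48 (SE), adjusted p = 0.231. Ccdc113, of the ciliary base and axoneme, measured 1.99, 5.07 and 3.06 FPKM in Saline, 1.82, 1.62 and 3.07 FPKM in OVA and 1.91, 3.26, 3.23 and 4.76 FPKM in Herb, with -0.57 ± 0.41 (SE), adjusted p = 0.288 in OVA vs. Saline. Ak7, an adenylate kinase of motile cilia, was at 1.76, 1.49 and 1.38 FPKM in Saline, 3.39, 2.94 and 3.12 FPKM in OVA and 3.29, 0.0693, 4.57 and 4.91 FPKM in Herb. Apart from Herb replicate 2, the OVA and Herb libraries of Ak7 were above all Saline libraries (0.99 ± 1.12 (SE), adjusted p = 0.498 in OVA vs. Saline). Cfap44, required for axoneme stability, had levels of 3.46, 1.95 and 1.97 FPKM in Saline, 7.07, 1.57 and 2.87 FPKM in OVA and 4.21, 4.5, 1.98 and 0.132 FPKM in Herb, with no order among the groups.

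Herb and OVA mice both received ovalbumin, and their comparison asks what differed with the extract. As deposited the median over the 37 genes was -0.065 on the log2 scale, and 1 of 37 was called higher (Dnal1) and 0 lower, when 32% of all genes tested were called higher and 0.355% lower. After scaling, 35 of 37 values were negative, with a median of -0.70. No gene passed limma's test on that scale, when 0.187% and 0.131% of all genes tested were called higher and lower. An unadjusted p under 0.05 was found in 12 of the 37 genes and in 3593 of all 16075 genes tested. The scaled values were -1.04 ± 0.32 (SE) for Dnah9, -0.94 ± 0.29 (SE) for Dnah11 and -1.04 ± 0.30 (SE) for Dnaic1. The values as deposited with the most negative sign were those of Ccdc40 (-1.29), Cfap44 (-0.90) and Ak7 (-0.76), genes with erratic libraries. Ccdc40 passed the filter on low values only through OVA, with means of 0.093 FPKM in Saline, 0.274 in OVA and 0.023 in Herb. Its lower value in Herb is therefore not read as a change. Those with the most positive sign were Ccdc39 (0.76), Ccdc113 (0.57) and Tppp3 (0.54 ± 0.23 (SE), adjusted p = 0.0975). Without OVA replicate 3, 3 of the 37 genes were called higher as deposited. With every library in the fit, 32% of all genes tested were. Without OVA replicate 1 or 2 or Herb replicate 1, 2 or 4 the call of Dnal1 was lost. Without OVA replicate 2, 1 gene was called lower, the same Ccdc40.

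Herb and Saline differ in both ovalbumin and extract. The median of the 37 genes was 0.18 as deposited and 0.56 after scaling. As deposited, limma called 0 of 37 genes, when 3.02% of all genes tested were called higher and 10.6% lower. An unadjusted p under 0.05 was found in 4 of the 37 genes and in 5102 of all 16075 genes tested. After scaling, 1 of 37, Foxj1, was called higher and 0 lower, against 8.02% and 3.71% of all genes. That call was lost without any of the Saline libraries and without Herb replicate 1, 3 or 4, while 3 genes were called higher without Herb replicate 2 and 2 without OVA replicate 3. As deposited, 1 gene was called higher without OVA replicate 1, OVA replicate 3 or Herb replicate 2, and 1 lower without OVA replicate 1 or 3. The shares of all genes above are those with every library, and those without a library are not given here. Dnah2 had 0.71 ± 0.26 (SE), adjusted p = 0.102 as deposited and 1.06 ± 0.31 (SE), adjusted p = 0.0575 after scaling, and Zmynd10 had 0.85 ± 0.38 (SE), adjusted p = 0.162 and 1.22 ± 0.41 (SE), adjusted p = 0.085. Ccdc39 (-1.57), Tppp3 (-0.67 ± 0.23 (SE), adjusted p = 0.0795) and Ccdc40 (-0.63) had the most negative values.

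Within each group the levels of these genes varied together from library to library. Saline replicate 1 held the lowest value of its group in 32 of 37 genes and Saline replicate 2 the highest in 31, while over all genes tested these libraries were the lowest in 35.1% and the highest in 34%. OVA replicate 3 was the highest of its group in 28 of 37 genes, against 39% of all genes. OVA replicate 1 was above its group mean in 10 of the 37 genes, near the 30.8% of all genes. OVA replicate 2 was above it in 2 of the 37, against 66.5% of all genes. In Herb, replicates 3 and 4 were above the group mean in 32 and 31 of the 37 genes and replicates 1 and 2 in 7 and 10. Over all genes tested the shares were 32.1% and 46.8% in Herb replicates 3 and 4 and 57.8% and 66.9% in replicates 1 and 2. After group means were subtracted, the correlation of a gene with the median of the other 36 had a median r of 0.9 over the 10 libraries, which all genes share, and 27 of 37 genes were over 0.8. Spag16 (0.986), Zmynd10 (0.979) and Dnah9 (0.978) were highest. The 9 genes under 0.5 were Dnal1, Tppp3 and Hydin, and the erratic Ccdc39, Ccdc40, Ccdc114, Drc1, Cfap44 and Ak7. OVA replicate 3 and Herb replicates 3 and 4 were also the libraries richest in goblet cell markers. Clca1, a secreted protein of goblet cells, was given as 0, 0.0544 and 0 FPKM in Saline, 15.8, 46.3 and 788 FPKM in OVA and 104, 34.5, 256 and 596 FPKM in Herb. The share of airway in each piece of lung was not measured, and its part in these differences was not tested.

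**Figure D3:**
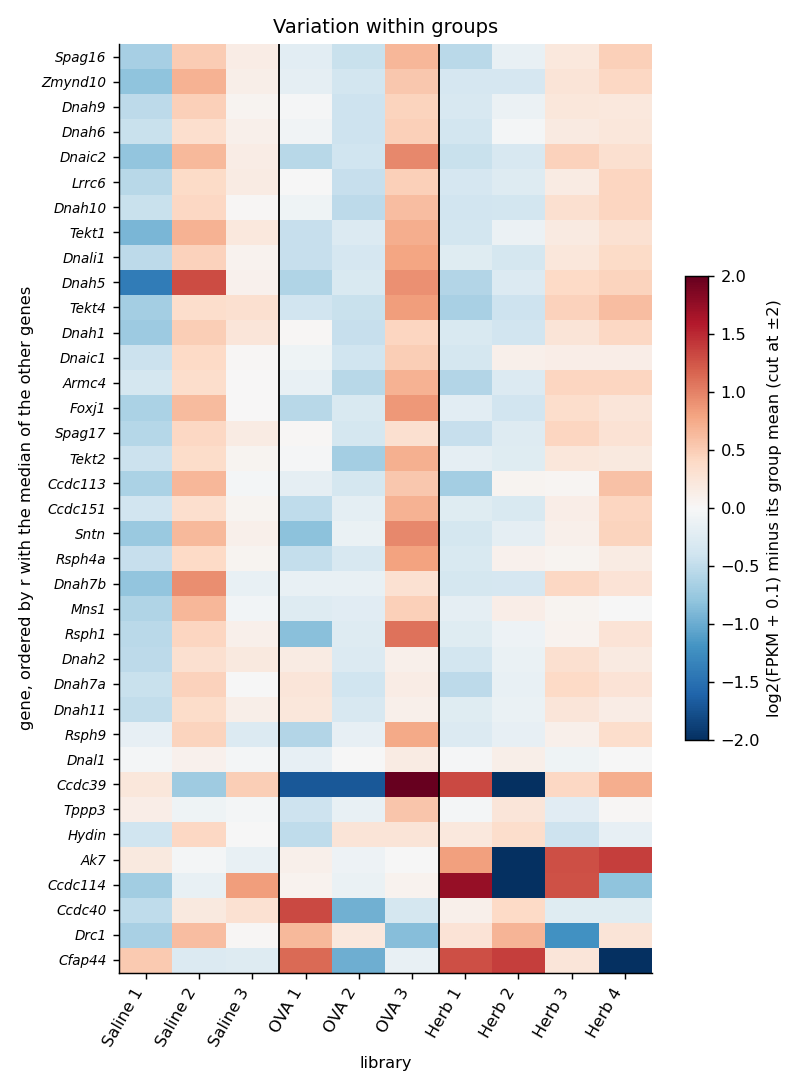
Deviation of log2(FPKM + 0.1) from the mean of its group (colour) for 37 genes (rows, ordered by their correlation with the median of the other genes) in the 10 libraries (columns). Most rows are blue in Saline 1, OVA 1, OVA 2, Herb 1 and Herb 2 and red in Saline 2, Saline 3, OVA 3, Herb 3 and Herb 4, and the 9 lowest rows do not follow this.

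The genes were also compared relative to their own median in each library, which removes library scale and any shared change. On this scale, which was added after the values were seen, Foxj1 rose beyond the other genes in OVA vs. Saline (1.22 ± 0.29 (SE), adjusted p = 0.0105), and Dnah10 did so too (0.79 ± 0.28 (SE), adjusted p = 0.0484). Tppp3 (-1.42 ± 0.36 (SE), adjusted p = 0.0132), Sntn (-0.96 ± 0.34 (SE), adjusted p = 0.0463) and Dnal1 (-0.92 ± 0.33 (SE), adjusted p = 0.0496) fell relative to the other genes. Relative to the median of the 37 genes in the same library, Foxj1 was higher by 0.85 to 1.28 log2 units in Saline, 1.89 to 2.65 in OVA and 1.87 to 2.22 in Herb. The regulators Ccno (1.85 ± 0.36 (SE), adjusted p = 0.00497) and Trp73 (0.95 ± 0.32 (SE), adjusted p = 0.0388) rose relative to the 37 genes, and Rfx3 fell (-0.89 ± 0.30 (SE), adjusted p = 0.0376). In Herb vs. OVA none of the 37 genes or 11 regulators was called on this scale. In Herb vs. Saline none of the 37 genes was called, and Ccno (2.0 ± 0.33 (SE), adjusted p = 0.0397) was called higher. Foxn4 in both comparisons with Saline and Mcidas in OVA vs. Saline were also called higher. Their Saline means were under 0.1 FPKM, so no fold is given. The share of all genes called on this scale is not given here, so the counts are not read as a result about the list. A value of this kind shows unequal change, not which gene stayed level.

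Of 12 regulators of multiciliogenesis 11 were tested. Mcidas, Foxn4 and Cdc20b passed the filter on low values through OVA and Herb libraries and had Saline means under 0.1 FPKM, so they are left out of the counts, a choice made after the values were seen. Of the other 8, in OVA vs. Saline 2 were called higher (Ccno, Trp73) and 1 lower (Rfx3) as deposited, with a median of 0.35. Of all genes tested, 3.98% were called higher and 44.5% lower there, with a median of -0.79. After scaling 5 were called higher and none lower, with a median of 1.39, against 20.5% and 14.3% of all genes and their median of 0.13. Mcidas, a coactivator of the programme, was given as 0, 0 and 0 FPKM in Saline, 0.454, 0.273 and 0.984 FPKM in OVA and 1.07, 0.0841, 0.886 and 0.311 FPKM in Herb. It was at 0 in every Saline library and above 0 in every other library, and no fold is given against a group at 0. Foxn4, a forkhead factor of multiciliated cells, was at 0, 0.0628 and 0 FPKM in Saline, 0.43, 0.728 and 1.23 FPKM in OVA and 0.706, 0.412, 1.56 and 1.43 FPKM in Herb. Its OVA and Herb libraries were all above its Saline libraries, which lay under the pseudocount, so no fold is given. Ccno, which the amplification of centrioles needs, stood at 0.51, 0.62 and 0.445 FPKM in Saline, 1.6, 2.24 and 4.28 FPKM in OVA and 2.52, 1.76, 3.94 and 3.6 FPKM in Herb. All OVA and Herb libraries of Ccno were above Saline, at 2.06 ± 0.39 (SE), adjusted p = 0.00228 in OVA vs. Saline, and Herb vs. Saline gave 2.24 ± 0.37 (SE), adjusted p = 0.0146. Trp73, the p73 gene that acts upstream of Foxj1, was at 0.459, 0.656 and 0.442 FPKM in Saline, 1.02, 0.944 and 2.1 FPKM in OVA and 0.911, 0.831, 1.3 and 1.46 FPKM in Herb, with 1.16 ± 0.34 (SE), adjusted p = 0.0194. Rfx3 was the regulator called lower (-0.67 ± 0.21 (SE), adjusted p = 0.028), and after scaling it was at 0.35 ± 0.20 (SE), adjusted p = 0.203. In Herb vs. Saline 1 of the 8 was called higher as deposited and 4 after scaling, when 3.02% and 8.02% of all genes tested were. In Herb vs. OVA limma called 0 of the 11 tested on either scale, with 2 and 3 at an unadjusted p under 0.05. Of all 16075 genes, 7086 as deposited and 3593 after scaling had such an unadjusted p.

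RFX factors bind a split motif, the X-box, whose 5′ part is often written GTTGCC, and Foxj1 binds forkhead words such as TGTTTAC. RefSeq promoter sequences of GRCm38.p6, from 250 bases before to 50 bases after a gene's start, were at hand for 33 of the 40 genes (36 promoters). GTTGCC, read on both strands, was in the promoters of 15 of the 33 genes (45.5%), against 14.1% of all 27025 symbols with a promoter and 15% of the 11473 tested genes with one. TGTTTAC was in 9.09% of the 33 and 4.05% of all, and TGTTTGT in none of the 33 and in 7.6% of all. GTTGCC followed after 0 to 3 bases by GNAAC, the longer form of the X-box and a search added after the first, was in 6 of 33 genes (18.2%) and in 0.969% of all symbols. In the other motile cilium lists the shares were 47.5% and 16.9% of 59 genes. A match describes letters in a window and not a bound site. The windows below, 36 bases each, are shown because 5 hold the longer form (Tekt4 is the sixth gene), and Dnah10 and Sntn are added since their levels moved apart from the other genes. Each is written 5′ to 3′ on the strand on which it reads GTTGCC, and capitals mark that word or its reverse complement.
Dnaic2 (chr11:114727375-114727410): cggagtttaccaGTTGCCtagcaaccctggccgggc
Hydin (chr8:110266946-110266981): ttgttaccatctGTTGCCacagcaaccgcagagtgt
Spag16 (chr1:69826855-69826890): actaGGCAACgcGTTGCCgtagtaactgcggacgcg
Tekt2 (chr4:126325693-126325728): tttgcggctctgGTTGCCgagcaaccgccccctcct
Cfap44 (chr16:44394762-44394797): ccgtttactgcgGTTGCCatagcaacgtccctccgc
Dnah10 (chr5:124725053-124725088): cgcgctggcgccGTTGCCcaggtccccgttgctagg
Sntn (chr14:13670798-13670833): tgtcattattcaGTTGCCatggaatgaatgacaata
Counted in the direction of the gene, the word began at position -26 from the annotated start in Dnaic2, -19 in Cfap44 and -13 in Hydin. Dnah5, Dnah9, Dnah11, Dnah1, Dnah2 and Dnah6 held none of the 3 words in their windows.

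Lists of further axonemal genes were read in the same way. In OVA vs. Saline as deposited, the other axonemal dynein and docking genes had 1 of 6 called higher and 2 lower, the other dynein assembly factors 2 of 11 higher and 0 lower, the other radial spoke and nexin link genes 0 of 17 higher and 1 lower, and the other central pair and tubule genes 2 of 23 higher and 0 lower. After scaling, 4, 7, 6 and 14 of these were called higher and none lower. The shares over all genes tested were 3.98% higher and 44.5% lower as deposited, and 20.5% and 14.3% after scaling. The testis-rich heavy chain Dnah8 was at 1.45 ± 0.52 (SE), adjusted p = 0.0429, the assembly factors Dnaaf3 and Dnaaf2 at 1.68 ± 0.42 (SE), adjusted p = 0.00922 and 0.65 ± 0.19 (SE), adjusted p = 0.0196, and the central pair genes Ccdc108 and Cfap46 at 1.10 ± 0.35 (SE), adjusted p = 0.0265 and 0.92 ± 0.33 (SE), adjusted p = 0.0431. The light chain Dynlrb2 (-1.44 ± 0.48 (SE), adjusted p = 0.0339), Dnal4 (-0.55 ± 0.20 (SE), adjusted p = 0.0496) and the nexin link gene Efcab2 (-1.29 ± 0.20 (SE), adjusted p = 0.000852) fell. The direction of Dnal4 turned with the scaling: after 75th percentile scaling it was called higher (0.48 ± 0.16 (SE), adjusted p = 0.0422). Of 15 other ciliated cell markers, Tubb4b, a tubulin of cilia, rose (1.07 ± 0.33 (SE), adjusted p = 0.0247) and Fam183b (-1.79 ± 0.52 (SE), adjusted p = 0.0187) and Mlf1 (-1.41 ± 0.51 (SE), adjusted p = 0.0457) fell, and after scaling 2 were called higher and none lower. Tubb4b stood at 9.69, 9.82 and 11.3 FPKM in Saline, 13.8, 18.4 and 40 FPKM in OVA and 31.8, 30.2, 34 and 39.2 FPKM in Herb.

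The dyneins and cilia of all cells were read beside them. Of 28 intraflagellar transport and primary cilium genes, 1 was called higher and 14 lower in OVA vs. Saline as deposited, with a median of -0.62. These counts were near the share of all genes tested, 3.98% higher and 44.5% lower with a median of -0.79. After scaling 5 were higher and 1 lower, with a median of 0.38, against 20.5% and 14.3% of all genes and their median of 0.13. The largest calls were Ift52 (-2.37), Dync2li1 (-1.35), Wdr34 (1.34) and Bbs4 (-1.11). Of 16 genes of cytoplasmic dynein 1 and dynactin, the cargo motor of all cells, 14 were called lower and none higher as deposited, and 5 lower and 1 higher (Dync1li1, among those lower as deposited) after scaling, with medians of -1.52 and -0.48. Dynlt3 (-2.78), Dync1li2 (-2.77), Dynlrb1 (-2.56) and Dctn2 (-2.44) led these. The summed level of this list was 236 to 247 FPKM in Saline and 73.5 to 98.1 FPKM in OVA, and that of the whole motile cilium list was 126 to 177 and 104 to 198 FPKM. Without Tppp3, which makes up a large share of that sum, it was 63.2 to 123 and 81.1 to 162 FPKM. As deposited, the groups overlapped either way. After scaling they did not: the sums of the whole motile cilium list were 94.0 to 134 in Saline and 147 to 303 in OVA. Without Tppp3 the scaled sums were 47.2 to 93.3 in Saline and 115 to 247 in OVA.

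**Figure D4:**
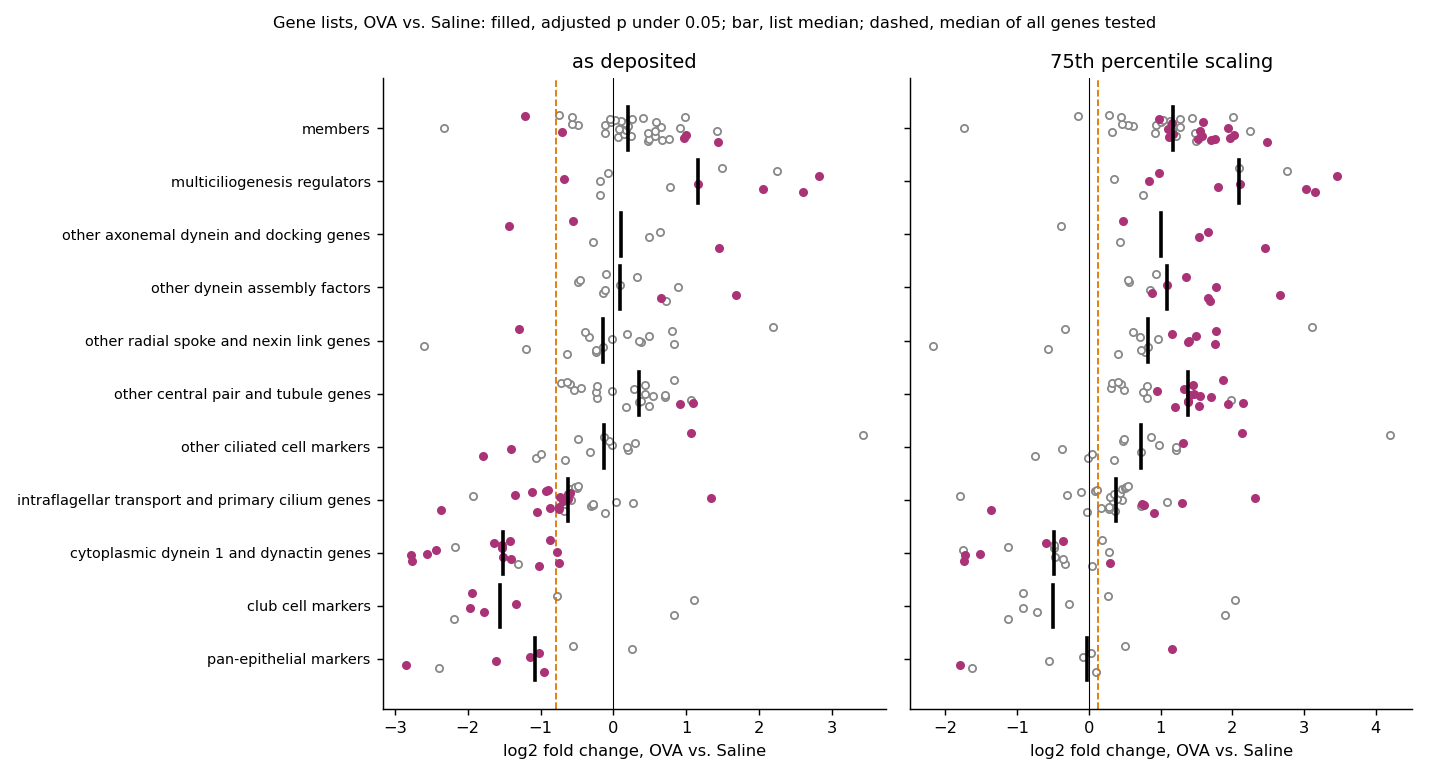
Log2 fold changes in OVA vs. Saline (horizontal axes) of each gene of the motile cilium list (members) and of 10 other lists, as deposited (left) and after scaling to the 75th percentile (right). Bars are list medians, filled points passed an adjusted p of 0.05 and the dashed line is the median of all genes; the median of the cytoplasmic dynein list lies below that line on both scales, and the multiciliogenesis regulators include 3 genes with Saline means under 0.1 FPKM.

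Markers of other cells of the lung were counted. Beside them, 3.98% of all genes tested were called higher and 44.5% lower in OVA vs. Saline as deposited. After scaling these shares were 20.5% and 14.3%, and 7349 of the 16075 genes had an unadjusted p under 0.05 by limma. Of 8 club cell markers, which line the same airways, 4 were called lower as deposited in OVA vs. Saline and 0 after scaling, when 2 had an unadjusted p under 0.05, and their summed level was 13962 to 24329 FPKM in Saline, 2917 to 5768 FPKM in OVA and 8399.6 to 13032 FPKM in Herb. After scaling the sums were 10420 to 18414 in Saline and 5169.5 to 8813 in OVA, which did not overlap. The scaled median of these markers was -0.49, against 0.13 over all genes. Of 8 goblet cell markers 3 had Saline means under 0.1 FPKM, and 3 of the other 5 were called higher on either scale, with sums over the list of 0.515 to 4.67, 21.3 to 950.1 and 44.8 to 724 FPKM. Pan-epithelial markers had 5 of 8 called lower as deposited, and 1 higher and 1 lower after scaling. Basal cell markers were too low to be tested. Of the markers of alveolar type 1, alveolar type 2 and endothelial cells, 5 of 7, 5 of 8 and 4 of 8 were called lower after scaling, and of those of smooth muscle 3 of 6 higher. Eosinophil markers with Saline means of at least 0.1 FPKM had 1 of 3 called higher and 1 lower on that scale. Macrophage and lymphocyte markers had 2 and 0 called higher and 1 and 2 lower. The part of these cells in the levels of the motile cilium genes was not tested.

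Transcript length differs widely within the list. In OVA vs. Saline as deposited, the 10 genes with transcripts over 10000 bases, all heavy chains and Hydin, had a median log2 fold change of 0.53, and the 9 with transcripts under 2000 bases had -0.11. Over all genes of these lengths the medians were -0.63 (289 genes) and -0.80 (5327 genes). After scaling, 8 of the 10 long and 1 of the 9 short genes were called higher, against 19% and 16.9% of all genes of the same lengths. Across the 37 genes, which share their libraries and are not independent, the log2 fold change correlated with the logarithm of transcript length with r = 0.343 in OVA vs. Saline and r = -0.4 in Herb vs. OVA. Over 15808 genes with a length, r was -0.0605 and 0.0223. Longer transcripts give more fragments at the same FPKM, and the part of length in which genes were called was not tested. At a level like that of the list, 1 to 10 FPKM on average, 9666 genes had a median of -0.90 and the 33 genes of the list in this range 0.17.

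**Figure D5:**
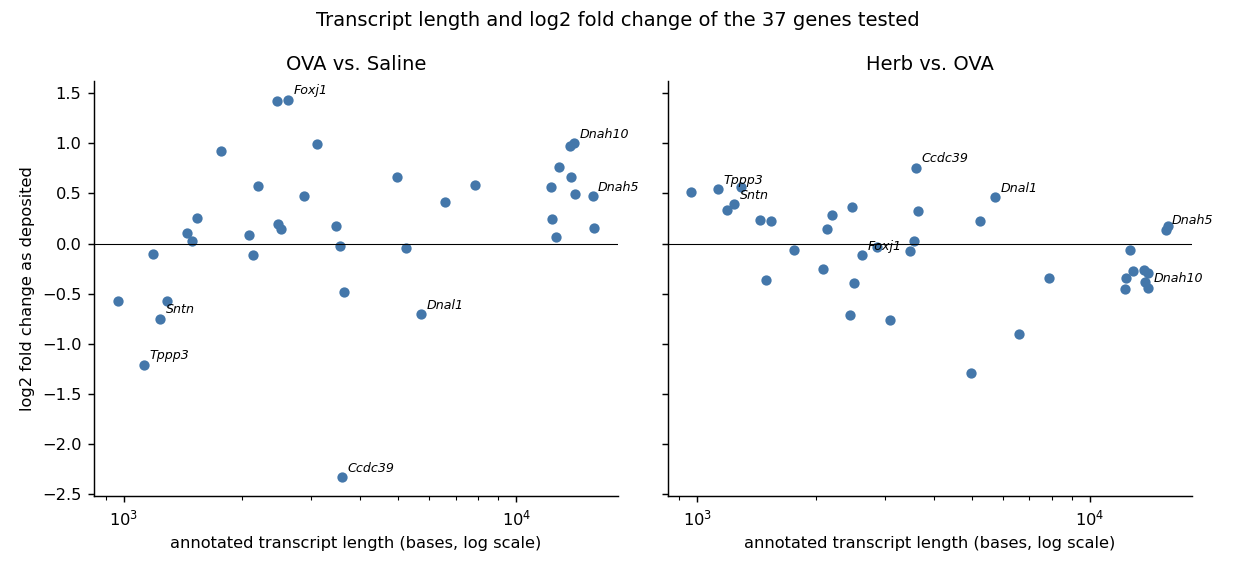
Log2 fold change as deposited (vertical axis) against annotated transcript length in bases (horizontal log axis) of the 37 genes in OVA vs. Saline (left) and Herb vs. OVA (right). The genes over 10000 bases lie above 0 on the left, and on the right all of them but Dnah5 and Hydin lie below 0.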

How the data were processed

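RNA from mouse lung was sequenced in 10 libraries (Saline 3, OVA 3, Herb 4). Labels and study methods name different kits, so whether counting used strand is not settled, and reads of a gene and an antisense partner cannot be told apart. The submitters' processing notes name cutadapt 1.10, HISAT2, StringTie 1.3.3b, edgeR 3.16.5 and the build mm10. The values deposited by the authors are FPKM per transcript, 66548 rows, of which 31605 are models without a symbol and were not used. No column of the authors' own comparisons was used.

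Rows were summed per symbol, sums with a mean of at least 0.1 FPKM were kept, and log2(FPKM + 0.1) was fitted with limma 3.58.1 (limma-trend, R 4.3.3) on all 10 libraries with 3 group means and Benjamini-Hochberg adjustment. Code was tested on simulated data. Fragment numbers were estimated from FPKM, length and depth. The genes of the motile cilium list given with values in every library are a fixed set by role and every gene called as deposited. Those with the largest positive or negative log2 fold changes in each comparison were added, a choice that rests on the values. The members and lists were chosen with earlier results of these data known. Replicate numbers did not pair the samples. Alternatives were other scalings, pseudocounts, filters, a fit of 2 groups, a replicate block and leaving out libraries. Plots used Python 3.11.15 and matplotlib 3.10.9. Gene positions came from GENCODE and promoters from RefSeq, both on GRCm38.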

Additional observations from a re-analysis of the deposited data

Results flagged for a closer look

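In the group of 4 Herb libraries, Dnaic1, an intermediate chain of the outer arm, stood at 1.5 FPKM in replicate 1 while the other libraries held 2.09 to 2.16 FPKM. The gap to the nearest library was 0.896 of the group's range, above Dixon's critical value at 95% for 4 samples. Chance alone gives such a gap in about 1 in 20 groups. Among the Herb values of the 37 genes tested, this was the only gene past the limit. The statement does not cover the groups of 3 libraries. There, for example, Dnah7b stood at 0.998, 0.997 and 1.4 FPKM in OVA.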

How the results depend on the processing

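The counts of calls, and the direction of single genes, depended on scaling, while the median of the list kept its sign under the 3 scalings that follow. In OVA vs. Saline the count of genes called higher, 3 as deposited, was 15 after 75th percentile scaling, 28 after scaling to the protein-coding sum and 14 after quantile normalization, with 0 lower under each. Of all 16075 genes, 3295, 5889 and 2469 were called higher and 2305, 1062 and 2182 lower under these scalings. The medians of the list were 1.17, 1.62 and 1.07. In Herb vs. OVA these scalings called 0 higher (30, 26 and 39 of all genes), with medians of -0.70, -0.89 and -0.69. In Herb vs. Saline they called 1, 6 and 0 higher (1290, 2997 and 419 of all genes), with medians of 0.56 and 0.75 under the first and second. Of the 37 genes, 9, 10 and 10 turned sign in OVA vs. Saline, and the values of those called on either scale follow. Under the protein-coding sum Dnali1 stood at 1.39, Dnal1 at 0.79, Rsph1 at 1.41, Rsph4a at 1.02, Rsph9 at 0.93, Spag16 at 1.48, Mns1 at 1.45 and Tppp3 at 0.33. Under the 75th percentile Dnal1 stood at 0.32 and Mns1 at 0.98, and under quantile normalization Dnal1 at 0.21 and Tppp3 at 0.67. In the 75th percentile scaling Dnali1, Rsph1, Rsph4a, Rsph9, Spag16, Ccdc113 and Sntn also turned from negative to positive, without a call on either scale. In Herb vs. OVA Dnal1 was at -0.18, -0.38 and -0.17 under the 3 scalings, and in Herb vs. Saline at 0.41 under the protein-coding sum. A filter at 1 FPKM, alone or with a pseudocount of 1, called 1 gene higher in Herb vs. Saline. A fit of 2 groups called 1 higher and 1 lower there, and 0 higher in Herb vs. OVA. Scaling to the median of the motile cilium genes, added after the data were seen, also called 0 higher in Herb vs. OVA. The cause was not tested.

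Leaving out each library in turn gave 0 to 5 genes called higher and 2 to 6 lower in OVA vs. Saline, with a median of -0.087 to 0.43. It gave 0 to 3 higher and 0 to 1 lower in Herb vs. OVA, with a median of -0.25 to 0.28, and 0 to 1 higher and 0 to 1 lower in Herb vs. Saline, with a median of -0.11 to 0.37. After 75th percentile scaling the ranges were 11 to 19 higher and 0 to 2 lower in OVA vs. Saline, with a median of 0.94 to 1.45, and 0 to 3 higher in Herb vs. Saline, with a median of 0.27 to 0.72. In Herb vs. OVA the scaled median was -0.98 to -0.36. With every library, 3.98% of all genes tested were called higher and 44.5% lower in OVA vs. Saline as deposited. In Herb vs. OVA the shares were 32% and 0.355%, and in Herb vs. Saline 3.02% and 10.6%. After scaling they were 20.5% and 14.3% in OVA vs. Saline and 8.02% and 3.71% in Herb vs. Saline. The shares without each library are not all given here, so the ranges show only how calls depend on single libraries. Without Saline 1 and OVA 3 together, added after the data were seen, 0 were higher and 7 lower in OVA vs. Saline. The median was -0.36 there, against -0.82 over all genes. In Herb vs. OVA 4 were higher. After scaling 2 were higher in OVA vs. Saline (median 0.68) and 0 in Herb vs. Saline.

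Same-numbered libraries of different groups had correlations of -0.0102 to 0.0427 in their deviations, so the numbers do not pair samples. A replicate block called 0 genes higher in Herb vs. OVA as deposited and 0 in Herb vs. Saline after scaling, and gave Herb replicate 4 a term of its own. Without the block, 32% and 8.02% of all genes tested were called higher in these comparisons. Depth limits Drc1 and the genes under 1 FPKM.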
